A study of Mus musculus with 14 samples.

Results

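Immune checkpoint and exhaustion genes were followed in bulk RNA of 14 mouse liver tumours, as 10 named rows of a table of 29923 gene symbols. The set holds 6 inhibitory or checkpoint receptors (Pdcd1, Lag3, Tigit, Havcr2, Ctla4 and Cd160), the PD-1 ligands Cd274 and Pdcd1lg2, the transcription factor Tox and the ectoenzyme Entpd1. Each gene was read in TPM, a relative transcript abundance scaled for transcript length and library total, and as a ratio to Cd3e, a chain of the T cell receptor complex. All 10 rows were present. A filter of 1 TPM or more in at least 3 tumours was passed by 9 of them, and Pdcd1lg2 did not pass it.

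Tumours were induced in C57BL/6 mice by tail-vein injection of MYC transposon plasmids with the SB100 transposase, which inserts them into the genome of liver cells. All groups received MYC. Luc tumours carried a plasmid with MYC and luciferase, and LucOS tumours one that added the strong OVA, SIN and SIY antigens. Each model was given an Aoah plasmid, encoding acyloxyacyl hydrolase, a lipase that removes acyl chains from lipopolysaccharide, or the empty vector plasmid. There were 4 Luc Aoah, 4 Luc vector, 3 LucOS Aoah and 3 LucOS vector tumours. The series text lists a plasmid for activated beta-catenin with no word on which tumours got it, and calls both models resistant to anti-PD1. A protocol for anti-PD1 is given in the labels, but nothing there says that these tumours were treated. Age and sex of the mice, and whether each tumour came from its own mouse, are not given in the sources used here, so p-values measure the spread between tumours only.

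Checkpoint receptors are surface proteins that restrain T cells and natural killer cells after activation. PD-1, encoded by Pdcd1, binds PD-L1 (Cd274) and PD-L2 (Pdcd1lg2) on tumour and myeloid cells, and antibodies that block this pair are used to treat liver cancer. T cells that meet antigen for a long time keep several such receptors at once, with the transcription factor TOX and the ATP-degrading enzyme CD39 (Entpd1), a state called exhaustion. Activated T cells carry the same receptors, and TOX, CD39 and PD-L1 are also made by cells that are not T cells.

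The libraries differed in ways that touch these genes. The delivered gene Aoah stood at 283.72 to 931.15 TPM in the 7 Aoah tumours. It stood at 18.57 TPM in Luc vector 1, at 54.76 TPM in Luc vector 3 and at 0.74 to 3.43 TPM in the other 5 vector tumours. LucOS Aoah 3 had 16.6% of its TPM in mitochondrially encoded genes against 3.41% to 8.45% elsewhere, and Luc Aoah 3 had 9.28% in small noncoding genes against 1.06% to 2.37%. Between 11478 and 12836 genes reached 1 TPM per tumour. Depth is unknown, since TPM keeps none. Hepatocyte markers (6 genes) summed to 2760 to 24100 TPM per tumour, so the liver origin given by the labels is seen in all of them.

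**Figure D1:**
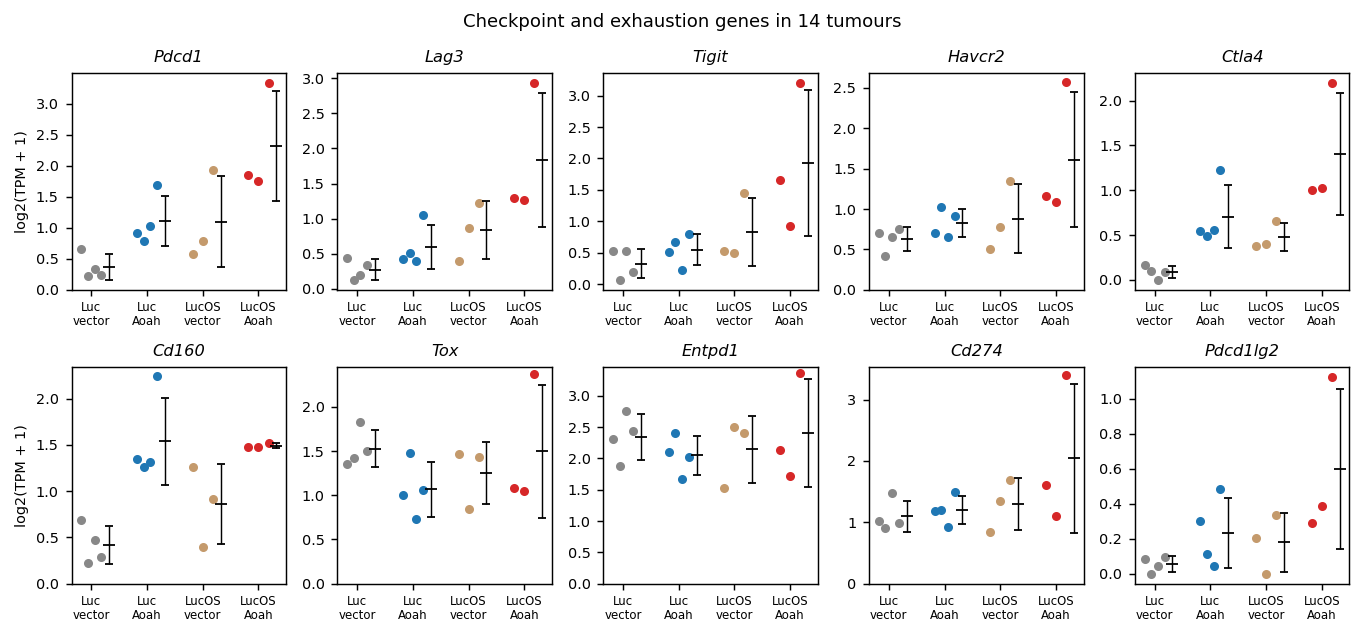
Level of each of the 10 genes as log2(TPM + 1) in the 4 groups; each point is 1 tumour, and the bar beside the points is the group mean with its SD (n = 3 or 4). LucOS Aoah 3 is the highest of the 14 tumours for 9 of the 10 genes, and Luc Aoah 4 is the highest for Cd160.

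Pdcd1, the receptor PD-1, was low in vector tumours without antigen and higher with Aoah. It measured 0.58, 0.16, 0.26 and 0.18 TPM in Luc vector tumours 1 to 4 and 0.88, 0.73, 1.04 and 2.24 TPM in Luc Aoah tumours 1 to 4. In LucOS it measured 0.49, 0.72 and 2.82 TPM with vector and 2.61, 2.37 and 9.1 TPM with Aoah. The Luc groups did not overlap, whereas LucOS vector 3 lay above LucOS Aoah 1 and 2. In Luc its log2(TPM + 1) differed by 0.74 between group means (SE 0.36), with a limma adjusted p of 0.129. For LucOS the value was 1.22 (SE 0.41) with a limma adjusted p of 0.214, so neither model passed the threshold of 0.05 alone. Averaged over both models Pdcd1 rose by 0.98 (SE 0.27, limma adjusted p = 0.0279). The call was lost without any one of 5 tumours: Luc Aoah 4 (adjusted p = 0.0625), LucOS Aoah 3 (0.0585), LucOS vector 1 (0.0579), LucOS vector 2 (0.0623) or Luc vector 4 (0.0534). It was also lost with no filter on low values (adjusted p = 0.0787), and with array weights, where the change was 0.33 (adjusted p = 0.131).

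Ctla4 encodes the receptor that competes with CD28 for CD80 and CD86, and it was higher with Aoah in both models. It was listed at 0.12, 0.07, 0 and 0.06 TPM in Luc vector tumours and at 0.46, 0.4, 0.47 and 1.34 TPM in Luc Aoah tumours. LucOS tumours held 0.3, 0.32 and 0.58 TPM with vector and 1.01, 1.03 and 3.58 TPM with Aoah. In each model the lowest Aoah value exceeded the highest vector value. Over both models Ctla4 rose by 0.77 on the log2(TPM + 1) scale (SE 0.19, limma adjusted p = 0.0149). The exact permutation test within models, two-sided, gave p = 0.00143, the smallest it can give. Neither model passed alone: the Luc value was 0.62 (SE 0.25, limma adjusted p = 0.0806) and the LucOS value 0.93 (SE 0.29, limma adjusted p = 0.159). At these levels adding 1 TPM compresses the change, and with 0.1 TPM added the Luc change was 2.15 (limma adjusted p = 0.0169). Over both models the call was lost without Luc vector 1 and 3 together (0.77, adjusted p = 0.0637). Ctla4 reached 1 TPM only in Luc Aoah 4 and the LucOS Aoah tumours, so it passed the filter only through tumours with Aoah. Its place among the genes tested was therefore not independent of the change. With no filter on low values its limma adjusted p over both models was 0.0381.

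Cd160, a receptor of cytotoxic T cells and natural killer cells that binds the herpesvirus entry mediator, was the only member that passed the limma test in Luc alone. Luc vector tumours held 0.61, 0.17, 0.39 and 0.22 TPM and Luc Aoah tumours 1.55, 1.39, 1.48 and 3.73 TPM. LucOS vector tumours held 1.39, 0.32 and 0.89 TPM and LucOS Aoah tumours 1.78, 1.78 and 1.88 TPM. Groups did not overlap in either model. Unlike the other 9 genes, Cd160 was not highest in LucOS Aoah 3, and its 3 LucOS Aoah values lay between 1.78 and 1.88 TPM. Cd160 rose by 1.12 on the log2 scale in Luc (SE 0.24, limma adjusted p = 0.00752) and by 0.88 over both models (SE 0.18, limma adjusted p = 0.00551). In LucOS the value was 0.63 (SE 0.28), with a limma adjusted p of 0.368. Cd160 reached 1 TPM in every Aoah tumour and, among vector tumours, only in LucOS vector 1, so it passed the filter mainly through Aoah tumours. With no filter on low values its limma adjusted p was 0.0229 in Luc and 0.017 over both models.

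Lag3, a receptor for MHC class II and for the liver-secreted protein FGL1, overlapped between the Luc groups and not between the LucOS groups. Its levels were 0.36, 0.09, 0.14 and 0.26 TPM in Luc vector and 0.34, 0.42, 0.31 and 1.07 TPM in Luc Aoah tumours. LucOS vector tumours held 0.32, 0.82 and 1.34 TPM, and LucOS Aoah tumours 1.46, 1.4 and 6.64 TPM. The separation in LucOS was narrow, and closest between LucOS Aoah 2 and LucOS vector 3. Averaged over both models Lag3 differed by 0.66 (SE 0.24, limma adjusted p = 0.0812), which did not pass. Without LucOS Aoah 2 it was 0.80 (limma adjusted p = 0.0479), and without LucOS Aoah 3 it was 0.38 (limma adjusted p = 0.136).

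Tigit, which binds the poliovirus receptor CD155, stood at 0.44, 0.05, 0.45 and 0.14 TPM in Luc vector and 0.42, 0.6, 0.17 and 0.74 TPM in Luc Aoah tumours. In LucOS it stood at 0.45, 0.41 and 1.73 TPM with vector and 2.14, 0.91 and 8.18 TPM with Aoah. The Aoah and vector groups overlapped in both models. Its change over both models was 0.66 (SE 0.29, limma adjusted p = 0.126), 0.91 (limma adjusted p = 0.0294) without LucOS Aoah 2 and 0.34 (limma adjusted p = 0.241) without LucOS Aoah 3.

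Havcr2, the receptor TIM-3, which is also carried by macrophages and dendritic cells, ranged from 0.34 to 0.69 TPM in Luc vector and from 0.57 to 1.03 TPM in Luc Aoah tumours. In LucOS it ranged from 0.42 to 1.54 TPM with vector and measured 1.24, 1.13 and 4.96 TPM with Aoah. Groups overlapped in both models, and the change over both was 0.46 (SE 0.22, limma adjusted p = 0.16), or 0.22 without LucOS Aoah 3.

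Cd274, the ligand PD-L1, is induced by interferon gamma in many cell types. It stood at 1.03, 0.88, 1.77 and 0.98 TPM in Luc vector and at 1.27, 1.3, 0.89 and 1.81 TPM in Luc Aoah tumours. LucOS vector tumours held 0.79, 1.55 and 2.22 TPM and LucOS Aoah tumours 2.06, 1.15 and 9.59 TPM. Apart from LucOS Aoah 3, the 13 tumours lay between 0.79 and 2.22 TPM with all groups overlapping. Between Luc groups Cd274 differed by 0.10 in log2 (SE 0.38, limma adjusted p = 0.855), and between LucOS groups by 0.75 (SE 0.44, limma adjusted p = 0.543). The other ligand, Pdcd1lg2, was near the lower end of the scale, at 0 to 0.07 TPM in Luc vector, 0.03 to 0.4 in Luc Aoah, 0 to 0.26 in LucOS vector and 0.22 to 1.18 in LucOS Aoah tumours. In a fit without the filter its change over both models was 0.30 (SE 0.12, limma adjusted p = 0.209).

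Tox and Entpd1 did not follow the receptors. Tox measured 1.56, 1.67, 2.55 and 1.83 TPM in Luc vector and 1.0, 1.79, 0.66 and 1.08 TPM in Luc Aoah tumours. In LucOS it measured 1.76, 0.8 and 1.71 TPM with vector and 1.11, 1.07 and 4.17 TPM with Aoah. In 3 of the 4 Luc Aoah tumours the level lay below all 4 Luc vector tumours, and 2 of the 3 LucOS Aoah tumours below 2 of the LucOS vector tumours. On the log2 scale Tox differed by -0.46 between Luc groups (SE 0.28, limma adjusted p = 0.225) and by 0.25 between LucOS groups (SE 0.33, limma adjusted p = 0.856). Without LucOS Aoah 3 the LucOS value was -0.19. Entpd1 was the most abundant member in most tumours, at 3.94, 2.67, 5.78 and 4.41 TPM in Luc vector and 3.29, 4.33, 2.17 and 3.06 TPM in Luc Aoah tumours. LucOS tumours held 1.89, 4.7 and 4.28 TPM with vector and 3.37, 2.31 and 9.34 TPM with Aoah. The groups overlapped throughout, and the change over both models was -0.02 (SE 0.26, limma adjusted p = 0.969).

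Counted together, 1 of the 9 members that passed the filter rose in Luc (Cd160), against 7.93% of all 13466 genes tested that rose there and 22.2% that changed in either direction. In LucOS 0 of 9 passed in the limma fit, where 0.965% of all genes did, and 6 of the 9 had an unadjusted p under 0.05, as did 12.3% of all genes. Over both models 3 of 9 rose (Pdcd1, Ctla4 and Cd160), against 8.02% of all genes that rose and 14.7% that changed either way. The members' median log2 change was 0.22 in Luc, 0.75 in LucOS and 0.66 over both, beside -0.24, -0.02 and -0.14 for all genes. Without LucOS Aoah 3 the members' median was 0.45 in LucOS and 0.34 over both. In all 3 comparisons the filter keeps genes through the group where they are high. These counts and medians, and the overlaps given last, therefore describe the set and are not a test of it. Taken relative to the median of all genes by centring each tumour, 6 of 9 passed over both models, adding Lag3 (0.81), Tigit (0.81) and Havcr2 (0.61), and the share of all genes that rose was then 13.5%. The lowest Aoah value exceeded the highest vector value for 3 of 10 members in Luc, where this held for 11.8% of all genes tested, and for 3 of 10 in LucOS, where it held for 6.22%.

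**Figure D2:**
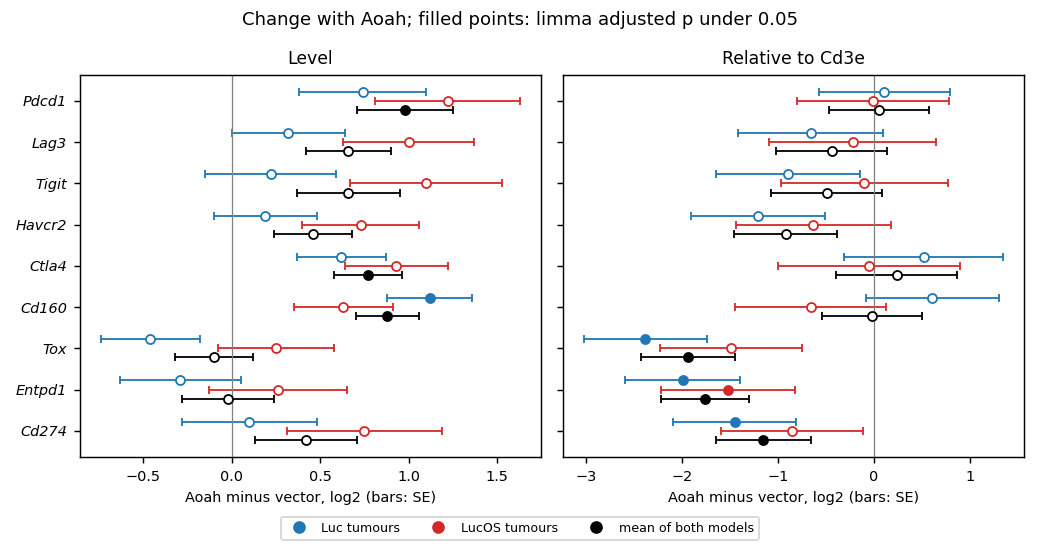
Aoah minus vector on the log2 scale for the 9 genes that passed the filter, left as levels and right relative to Cd3e, with SE bars from limma; filled points passed an adjusted p of 0.05. On the left Pdcd1, Ctla4 and Cd160 pass over both models and only Cd160 passes in Luc, and on the right Tox, Entpd1 and Cd274 lie below 0 in Luc and over both models.

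The authors' deposited tables, made with DESeq2 per the submitters' processing notes, hold values for all 10 members from separate fits of each model. In the authors' deposited table for Luc, 5 of 10 members had an adjusted p under 0.05, all higher with Aoah, where 15.6% of its genes were higher by that rule. That table gives log2 fold changes of 3.62 for Ctla4 (adjusted p = 5.73e-05), 2.86 for Cd160 (6.89e-06) and 2.39 for Pdcd1 (0.000379). It also gives 1.68 for Lag3 (0.0291) and 0.77 for Havcr2 (0.0493), and mean normalised counts from 4.26 for Pdcd1lg2 to 281 for Entpd1. In the authors' deposited table for LucOS only Ctla4 was under 0.05 (log2 fold change 2.14, adjusted p = 0.0212), where 1.99% of genes were higher. The direction of these fold changes is not labelled, and the positive value of Aoah was taken to show it.

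T cell markers were higher in sum with Aoah in both models. The 13 T cell markers summed to 7.38 to 22.7 TPM in Luc vector and 72.9 to 124 TPM in Luc Aoah tumours, and to 14.9 to 42.7 TPM in LucOS vector and 71.8 to 186 TPM in LucOS Aoah tumours. None of them was at 0 in every tumour of a group. Of all genes tested, 7.93% rose in Luc, 0.965% passed in LucOS in either direction and 8.02% rose over both models. Of the 12 T cell markers tested, 10 rose in Luc, 3 in LucOS and 12 over both models. Among those named by rank, the receptor chain gene Trbc2 rose by 2.36 (limma adjusted p = 0.000339) and the receptor complex gene Cd3d by 2.34 (limma adjusted p = 0.000661) in Luc. The 11 CD8 and cytotoxic genes went from 11.4 to 37.9 TPM summed in Luc vector to 96.5 to 174 TPM in Luc Aoah, and 9 of the 10 tested rose, led by Klrd1 (2.28) and the granzyme genes Gzma (2.68) and Gzmb (2.21). TRB clone counts in the authors' repertoire table, which are not scaled to depth, were 4 to 12 in Luc vector and 77 to 135 in Luc Aoah, and 17 to 71 in LucOS vector and 81 to 157 in LucOS Aoah tumours. In bulk RNA more cells of a type and more RNA per cell cannot be told apart, and the part of T cell content in the receptor levels is described here only by the ratio to Cd3e.

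Cd3e itself measured 1.54, 0.25, 0.93 and 0.96 TPM in Luc vector and 2.07, 4.93, 1.35 and 3.47 TPM in Luc Aoah tumours. It measured 1.38, 1.06 and 2.39 TPM in LucOS vector and 4.74, 2.77 and 13.63 TPM in LucOS Aoah tumours. Luc Aoah 3 lay below Luc vector 1, and the Luc change of 1.00 did not pass (SE 0.39, limma adjusted p = 0.0733). Over both models Cd3e rose by 1.21 (SE 0.30, limma adjusted p = 0.0149). Its partner chain Cd3d separated the Luc groups further, at 0.63 to 1.37 TPM with vector and 5.33 to 12.45 TPM with Aoah.

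**Figure D3:**
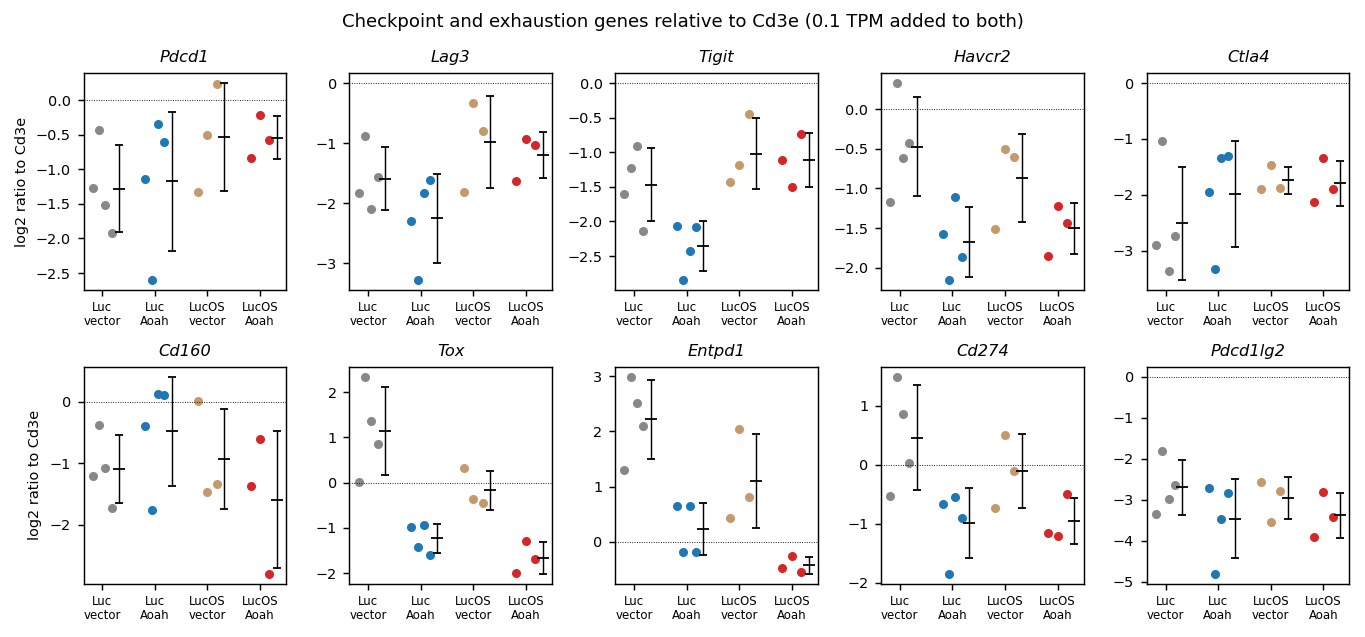
Log2 ratio of each gene to Cd3e in the same tumour, with 0.1 TPM added to both, in the 4 groups; points are tumours, bars show mean and SD (n = 3 or 4), and the dotted line marks equal TPM. The ratios of Tox and Entpd1 are lower in every Aoah tumour than in every vector tumour of the same model, and those of the 6 receptors overlap.

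Relative to Cd3e, Pdcd1 stood at 0.377, 0.64, 0.28 and 0.187 in Luc vector and 0.425, 0.148, 0.77 and 0.646 in Luc Aoah tumours. LucOS ratios were 0.355, 0.679 and 1.18 with vector and 0.551, 0.856 and 0.668 with Aoah. These ranges overlapped in both models, and the log2 change over both was 0.05 (SE 0.52, limma adjusted p = 0.929). The ratios of the other 5 receptors overlapped as well in each model. Over both models their log2 changes were 0.24 for Ctla4 (SE 0.63), -0.02 for Cd160 (SE 0.52), -0.44 for Lag3 (SE 0.58), -0.49 for Tigit (SE 0.58) and -0.92 for Havcr2 (SE 0.54), with limma adjusted p from 0.0943 to 0.967. For Havcr2 this depended on the setting: it passed with 1 TPM added (-0.75, adjusted p = 0.0354), without trend and robust moderation (-0.92, adjusted p = 0.0487), with array weights (-0.75, adjusted p = 0.00206) and with the mean of 3 Cd3 chains as denominator (-1.41, adjusted p = 0.0059). The exact permutation test within models, two-sided, gave p = 0.00857 for the Havcr2 ratio.

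Tox and Entpd1 fell relative to Cd3e. The Tox ratio was 1.01, 6.68, 2.74 and 1.91 in Luc vector and 0.483, 0.363, 0.489 and 0.311 in Luc Aoah tumours, and in LucOS 1.28, 0.755 and 0.715 with vector and 0.234, 0.386 and 0.306 with Aoah. For Entpd1 the ratio was 2.56, 10.7, 6.22 and 4.59 in Luc vector and 1.59, 0.878, 1.61 and 0.882 in Luc Aoah tumours. In LucOS Entpd1 stood at 1.37, 4.43 and 1.79 times Cd3e with vector and 0.711, 0.834 and 0.685 times with Aoah. Neither gene's groups overlapped in either model, as held for 63.3% of all genes in Luc and 73.0% in LucOS in the same direction. Over both models the ratio fell by 1.94 on the log2 scale for Tox (SE 0.49, limma adjusted p = 0.000157) and by 1.76 for Entpd1 (SE 0.46, limma adjusted p = 0.000262), and the exact permutation test within models, two-sided, gave its smallest p, 0.00143, for each. Cd274 fell by 1.15 relative to Cd3e (SE 0.49, limma adjusted p = 0.0214 over both models), with Luc ratios of 0.669 to 3.52 with vector and 0.264 to 0.659 with Aoah. The Cd274 call was lost without Luc Aoah 2 (-1.01, adjusted p = 0.0573). In Luc alone its call was lost without Luc Aoah 2, Luc Aoah 4, Luc vector 2 or Luc vector 3 (adjusted p from 0.0574 to 0.131). Every ratio of a tumour carries the same Cd3e error, so genes are not independent in this fit. Its limma p-values can therefore be too small. Within LucOS the exact permutation test, two-sided, gave p = 0.1 for the Tox and for the Entpd1 ratio, the smallest it can give there.

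These falls are the common case for a ratio to Cd3e. Over both models 3 of 9 members fell, while 88.2% of all 13466 genes did, and the members' median was -0.49 beside -1.90 for all genes. In Luc 3 of 9 fell against 75.2% of all genes, and in LucOS 1 of 9 (Entpd1) against 71.5%. A gene whose level does not move with T cell genes falls by this measure whenever Cd3e rises. The count in Luc depends on the denominator: with the mean of Cd3e, Cd3d and Cd3g it was 6 of 9, adding Havcr2 (-2.14, limma adjusted p = 0.00146), Tigit (-1.82, adjusted p = 0.0103) and Lag3 (-1.60, adjusted p = 0.0251). In Luc Cd3d and Cd3g rose by 2.34 and 1.83, against 1.00 for Cd3e, and a change of denominator shifts the ratio of every gene alike. The share of all genes that fell with this denominator is not given here, so the 6 of 9 is not set against it. The single LucOS call was lost without LucOS Aoah 1, LucOS Aoah 3 or LucOS vector 2, with 0 of 9 called.

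Among Aoah tumours, 4 receptors were higher with the antigens by value, and none passed the test. All 3 LucOS Aoah tumours lay above all 4 Luc Aoah tumours for Pdcd1, Lag3, Tigit and Havcr2, 4 of 10 members, where this held for 2.2% of all genes tested. In Luc, Lag3 reached 1 TPM only in Luc Aoah 4 and Havcr2 only in Luc Aoah 2, and Tigit reached it in no Luc tumour. These genes thus passed the filter mainly through LucOS tumours, so the count describes the members and is not a test. The 10 include Pdcd1lg2, which is not among the genes tested. The log2 differences were 1.38 for Tigit (SE 0.40), 1.24 for Lag3 (SE 0.35), 1.21 for Pdcd1 (SE 0.39) and 0.79 for Havcr2 (SE 0.31), with Cd160 at -0.05. Without LucOS Aoah 3 they were 0.74 for Tigit, 0.69 for Lag3, 0.70 for Pdcd1 and 0.31 for Havcr2. In the limma fit 0 of 9 passed (adjusted p from 0.341 to 0.978), where 0.0817% of all genes passed. An unadjusted p under 0.05 was found for 5 of 9 members and for 7.01% of all genes. Summed T cell markers overlapped between these groups, at 71.8 to 186 TPM in LucOS and 72.9 to 124 TPM in Luc. The 12 T cell markers tested had a median log2 difference of 0.16, from -0.18 for Lck to 0.87 for Cd3e and Cd3g. For the 14 interferon gamma response genes tested the median was 1.14, beside -0.01 for all genes. The part of either in the receptor levels was not tested. Among vector tumours 0 of 9 passed in the limma fit, 0 had an unadjusted p under 0.05 (14.2% of all genes did), 0% of all genes passed, and only Ctla4 had groups that did not overlap, where 2.12% of all genes did so. The difference between the Aoah effects of the models, which is also the difference between these antigen effects, passed for 0 of 9 members in the limma fit (-0.49 to 0.88, adjusted p from 0.454 to 0.667, 0 at an unadjusted p under 0.05 beside 10.2% of all genes), where 0.00743% of all genes passed. These comparisons share tumours with each other.

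Of these 4 receptors, Tigit alone also had groups without overlap relative to Cd3e. Its ratio was 0.203, 0.122, 0.126 and 0.213 in Luc Aoah and 0.451, 0.329 and 0.6 in LucOS Aoah tumours. No LucOS Aoah tumour reached down to the Luc Aoah range, which held for 0.156% of all genes tested. Cd3e was itself higher by value in LucOS Aoah tumours (0.87, SE 0.42, limma adjusted p = 0.722). The median ratio difference was -1.08 for all genes and 0.17 for the members. A ratio that rises is therefore uncommon here, and the 0.156% does not mark Tigit out. The log2 difference of the Tigit ratio was 1.24 (SE 0.81, limma adjusted p = 0.247). Tigit reached 1 TPM only in 3 LucOS tumours (2.14, 8.18 and 1.73 TPM), through which it passed the filter. In the limma fit 0 of 9 members passed and 0.802% of all genes did. The ratios of Pdcd1, Lag3 and Havcr2 overlapped between the groups, Lag3 only at the edge, where Luc Aoah 4 and LucOS Aoah 1 both stood at 0.308. Cd160 went the other way by value, with a ratio of 0.749, 0.282, 1.1 and 1.07 in Luc Aoah and 0.376, 0.643 and 0.138 in LucOS Aoah tumours (log2 difference -1.11, SE 0.74, limma adjusted p = 0.252).

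LucOS Aoah 3 set the upper end of the scale. It exceeded the next tumour 4.55-fold for Lag3, 4.32-fold for Cd274, 3.82-fold for Tigit, 3.23-fold for Pdcd1 and 3.22-fold for Havcr2. In the same tumour Cd3e was also highest, the 11 macrophage and Kupffer cell markers summed to 812 TPM against 156 to 406 TPM elsewhere, and the 15 interferon gamma response genes to 7460 TPM against 659 to 3000 TPM. The 5 regulatory T cell markers summed to 3.5 TPM there and to 0.15 to 0.86 TPM elsewhere. The part of these features in its checkpoint levels was not tested.

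Pdcd1 and Ctla4 were called together over both models while the interferon-induced ligand Cd274 was not (0.42, SE 0.29, limma adjusted p = 0.309). Whether the changes of these genes differ from each other was not tested. The upstream sequences of these 3 members are shown. They are the 250 bases before the start of transcription, from RefSeq on GRCm38.p6, written 5′ to 3′ on the gene's strand, at chr1:94052554-94052803 (minus strand) for Pdcd1, chr1:60908775-60909024 (plus strand) for Ctla4 and chr19:29367188-29367437 (plus strand) for Cd274. Capitals mark GGAAA on either strand (TTTCC on the printed one), the core bound by NFAT, a factor of T cell receptor signalling.
Pdcd1: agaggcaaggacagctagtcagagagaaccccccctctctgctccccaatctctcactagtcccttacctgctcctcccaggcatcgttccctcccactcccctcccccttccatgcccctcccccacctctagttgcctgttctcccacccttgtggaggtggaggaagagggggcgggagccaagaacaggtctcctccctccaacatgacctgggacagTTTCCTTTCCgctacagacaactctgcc
Ctla4: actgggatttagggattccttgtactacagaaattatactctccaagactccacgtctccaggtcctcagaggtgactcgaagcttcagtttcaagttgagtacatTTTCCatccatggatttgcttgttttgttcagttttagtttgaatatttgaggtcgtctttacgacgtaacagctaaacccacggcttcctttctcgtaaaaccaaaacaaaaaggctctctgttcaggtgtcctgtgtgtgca
Cd274: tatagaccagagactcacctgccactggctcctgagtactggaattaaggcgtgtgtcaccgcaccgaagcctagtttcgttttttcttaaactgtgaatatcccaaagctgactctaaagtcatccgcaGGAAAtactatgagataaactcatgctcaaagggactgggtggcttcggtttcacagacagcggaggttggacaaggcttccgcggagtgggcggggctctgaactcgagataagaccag
The Pdcd1 window holds the core 2 times, next to each other, and the Ctla4 and Cd274 windows hold it 1 time each. This core is present in 55.6% of 32851 promoter windows of the same length, so it is a common match. Also searched on both strands was the interferon-stimulated response element by its repeated core, present in 2.98% of windows. None of the 3 windows holds it, which says only that these letters are not within these bases. Cd160, also called over both models, has a pair of windows in the table, of which 1 holds the NFAT core 1 time. Entries matched 8 of the 10 members.

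Fgl1, a ligand of LAG-3 secreted by hepatocytes, was lower with Aoah. It measured 1473.75, 1638.02, 1551.98 and 1217.65 TPM in Luc vector and 791.86, 1098.63, 712.71 and 397.3 TPM in Luc Aoah tumours. LucOS tumours held 651.97, 1746.95 and 1247.78 TPM with vector and 470.24, 544.41 and 667.79 TPM with Aoah. The Luc groups did not overlap, and in LucOS vector 1 lay just under Aoah 3. Fgl1 fell by 1.05 in Luc (SE 0.31, limma adjusted p = 0.0323) and by 1.03 over both models (SE 0.24, limma adjusted p = 0.00996), and its LucOS change was -1.02 (SE 0.36, limma adjusted p = 0.234). Hepatocyte markers differed among themselves in Luc, where 4 of the 6 (Mup3, Cyp3a11, Ttr and Alb) rose, while Cps1 was lower by value (-0.77, limma adjusted p = 0.0609). The 6 summed to 4430 to 6060 TPM with vector and 7580 to 24100 TPM with Aoah. Of all genes tested, 7.93% rose in Luc. Clec4g, a sinusoidal endothelial lectin that also binds LAG-3, rose in Luc by 1.75 (SE 0.48, limma adjusted p = 0.0243), from 1.65 to 6.24 TPM with vector to 8.85 to 13.89 TPM with Aoah. Of 7 endothelial markers, Emcn and Kdr rose in Luc and the other 5 did not pass, and the 7 summed to 6.02 to 22.1 TPM with vector and 15.1 to 34.8 TPM with Aoah, so these sums overlapped. Their part in the Clec4g change was not tested. In LucOS Clec4g stood at 0.63 to 7.8 TPM with vector and 1.75 to 4.37 TPM with Aoah.

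Ligands of TIGIT and CTLA-4 also differed in Luc. Pvr, the poliovirus receptor, measured 12.32, 8.25, 12.14 and 15.28 TPM in Luc vector and 6.1, 9.11, 3.39 and 4.35 TPM in Luc Aoah tumours, a fall of 0.99 (change -0.99, SE 0.27, limma adjusted p = 0.0231). Only Luc Aoah 2 reached the vector range, and in LucOS the change was -0.12 (SE 0.31, limma adjusted p = 0.94). Cd86, a costimulatory ligand of antigen-presenting cells, measured 4.36, 2.77, 3.1 and 3.02 TPM in Luc vector and 8.49, 6.49, 9.34 and 10.07 TPM in Luc Aoah tumours without overlap, and rose by 1.15 (SE 0.30, limma adjusted p = 0.0196). Over both models it rose by 0.90 (limma adjusted p = 0.0174). Its relative Cd80 was under the filter, at 0.27 to 0.43 TPM in Luc vector and 0.72 to 1.19 TPM in Luc Aoah tumours, and the authors' deposited table gives it a log2 fold change of 1.57 (adjusted p = 0.00178). For Nectin2, Lgals9, Ceacam1 and Tnfrsf14, further partners of TIGIT, TIM-3 and CD160, the Luc changes were -0.40, -0.26, 0.04 and 0.13, with limma adjusted p from 0.27 to 0.969.

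**Figure D4:**
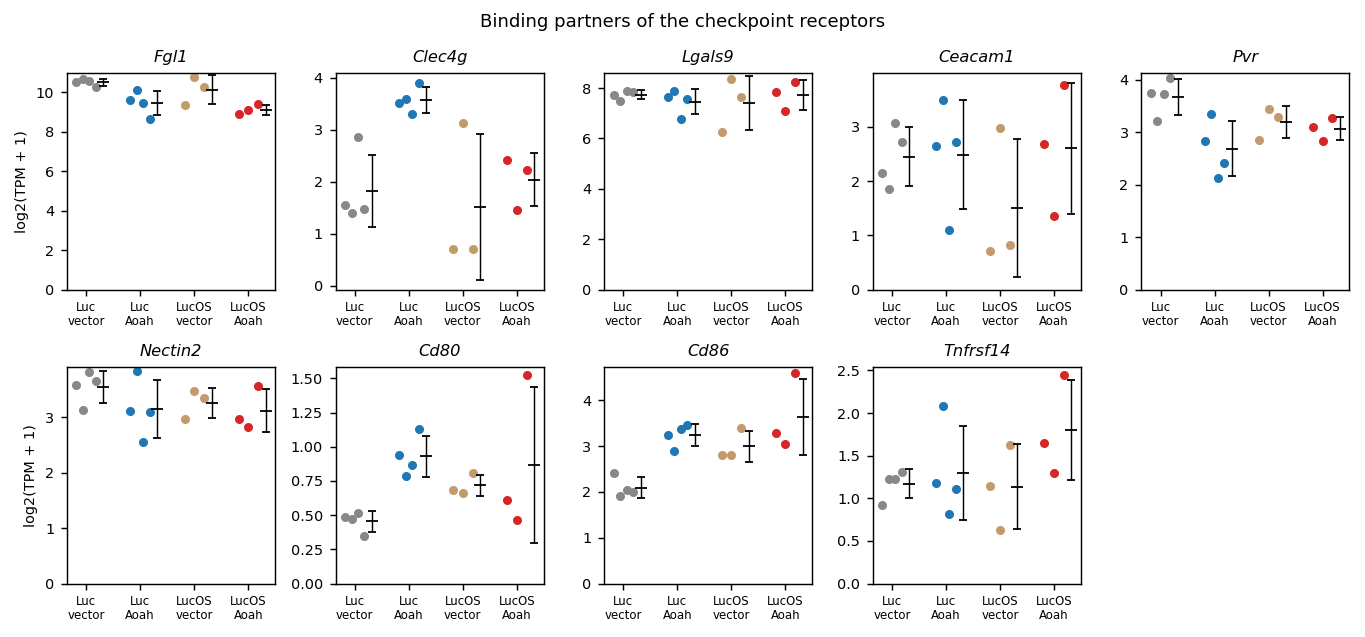
Level of 9 binding partners of the checkpoint receptors as log2(TPM + 1) in the 4 groups; points are tumours and bars show mean and SD (n = 3 or 4). In Luc tumours Fgl1 and Pvr are lower and Clec4g, Cd80 and Cd86 higher with Aoah, and of these only Pvr has overlapping Luc groups.

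In the wider list of 44 partner ligands and receptors, 31 genes were tested. In Luc 9 rose and 3 fell, in LucOS 0 passed in the limma fit, and over both models 7 rose and 1 fell (Fgl1). Of all genes tested, 22.2% changed either way in Luc (7.93% rose), 0.965% in LucOS and 14.7% over both models (8.02% rose). Beyond those above, the smallest p-values in Luc belonged to Klrc1, the inhibitory lectin receptor NKG2A (1.87, limma adjusted p = 0.000659), Cd48, a ligand of the 2B4 receptor (1.37, adjusted p = 0.00442), and the CD155 receptors Cd226 (0.96, adjusted p = 0.00636) and Cd96 (0.73, adjusted p = 0.0206). Klrc1 and Cd226 are carried by natural killer cells as well as T cells. Of the 6 natural killer and innate lymphoid markers 2 were tested and both rose in Luc, Klrk1 (1.70) and Xcl1 (1.52), and the 6 summed to 0.97 to 3.49 TPM with vector and 7.58 to 17.6 TPM with Aoah. Ncr1, under the filter, stood at 0.03 to 0.13 TPM in Luc vector and 0.1 to 0.52 TPM in Luc Aoah tumours. In LucOS it overlapped, at 0.09 to 0.26 TPM with vector and 0 to 0.24 TPM with Aoah. The part of natural killer cells in the rise of Klrc1, Cd226 and Cd160 was not tested.

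Among 25 genes of exhaustion transcription and T cell memory, 10 were tested. In the limma fit 3 rose in Luc and none fell, beside 7.93% of all genes that rose and 22.2% that changed either way. The list's median change there was 0.18, beside -0.24 for all genes. They were Cxcr6, a chemokine receptor of tissue-resident T cells (2.18, limma adjusted p = 0.001), Slamf6, a receptor of precursor exhausted T cells (0.82, limma adjusted p = 0.048), and the chemokine receptor Cxcr3 (0.62, limma adjusted p = 0.0489). In LucOS 0 of 10 passed in the limma fit, and Batf, a transcription factor of activated T cells, joined them over both models (0.76, limma adjusted p = 0.0451). The 5 regulatory T cell markers, led by Foxp3, were all under the filter. They summed to 0.15 to 0.43 TPM in Luc vector, 0.23 to 0.46 TPM in Luc Aoah, 0.2 to 0.86 TPM in LucOS vector and 0.34 to 3.5 TPM in LucOS Aoah tumours. Regulatory T cells also carry Ctla4, and their part in its levels was not tested. Of 14 interferon gamma response genes tested, 5 rose in Luc, 3 in LucOS and 8 over both models, beside 7.93% (higher), 0.965% (either way) and 8.02% (higher) of all genes. They were led by the immunoproteasome gene Psmb9 (1.99 in Luc, limma adjusted p = 0.00124) and the chemokine gene Cxcl9 (2.11 in Luc, adjusted p = 0.0152, and 3.40 in LucOS, adjusted p = 0.0207).

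Each member was set against all other genes over the 14 tumours, where all points share their groups and libraries. Tigit, Havcr2 and Lag3 were each among the 3 genes most like one of the others, with Pearson r of 0.955 to 0.961 between them, and LucOS Aoah 3 is the highest point for all. Lag3 itself was most like Or2v1 (0.972), Ccl3 (0.968) and Trgc2 (0.967). Pdcd1 was most like Tnfrsf18, the costimulatory receptor GITR (r = 0.981), followed by H2-DMb2 (0.973) and Gbp2 (0.968). Ctla4 was most like Gbp11 (0.984) and Gbp4 (0.969), both interferon-inducible GTPases, followed by Tnfsf10 (0.961). Cd160 was most like Ctsw (0.957), Gimap7 (0.949) and the granzyme gene Gzmb (0.936). Entpd1 was most like Plek (0.964) and Cmklr1 (0.964), which are expressed in myeloid cells, followed by Znfx1 (0.956). Cd274 was most like Irag2 and Themis2 (0.944 each), followed by Havcr2 (0.941). Pdcd1lg2 was most like Gbp11 (0.941) and Ctla4 (0.938). Tox had the weakest nearest gene, Fam193b (r = 0.891). With Cd3e, r ran from 0.393 for Tox and 0.477 for Entpd1 to 0.886 for Ctla4. These values are descriptions across 14 tumours, and no test was made of them.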

How the data were processed

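Expression came as log2(TPM + 1) per gene symbol for 14 tumours, deposited by the authors, whose processing notes name RSEM and mm39. The aligner, the strand setting and the total counts are not given in the sources used here, so genes with overlapping or antisense partners may share reads, and no count test or depth-based limit was made. The authors' deposited tables of comparisons give, per the file headers, a mean signal over samples (read as normalised counts, since the submitters' notes name DESeq2), log2 fold changes with SE, a test score that was not printed, and p-values. GENCODE M21 named 95.5% and 95.6% of these, on an older build, so it gave names only. Their repertoire table, deposited with the name of the tool MiXCR, gives clone counts.

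Log2 values were turned back into TPM. limma 3.58.1 in R 4.3.3 was fitted on log2(TPM + 1) with 1 mean per group over all 14 tumours, trend and robust moderation, for 13466 genes at 1 TPM or more in at least 3 tumours, with Benjamini-Hochberg adjustment over all of them. Ratios used log2((TPM + 0.1)/(Cd3e TPM + 0.1)) for the same genes, also adjusted over all. All ratios of a tumour share its Cd3e value, so the errors of genes in the ratio fit are not independent. The limma p-values of ratios can therefore be too small. The fits were tested on simulated data. Exact permutation tests were two-sided, with labels permuted inside each model when models were combined. All members were named, with their direct partners and, per list, the tested genes with the smallest p. Members and lists were chosen with earlier results of these data known, and the ratio comparison of LucOS with Luc was added later. The alternatives tried were a replicate block, other pseudocounts, filters, variance models, scalings, weights and denominators, and leaving out tumours. One motif that was also searched is not reported here.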

Additional observations from a re-analysis of the deposited data

Results flagged for a closer look

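In 5 of 60 groups of 4 tumours examined (levels of the members, Cd3e and their partners, and ratios to Cd3e, in the Luc groups), 1 tumour stood further from the rest than Dixon's 95% critical value of 0.829 allows. For independent groups of normally distributed values, chance gives about 1 in 20. Here the values were untransformed TPM and ratios, and the groups share the same tumours, so the 5 are not set against that rate. Luc Aoah 4 stood apart upward for 3 receptors: Ctla4 at 1.34 TPM against 0.4 to 0.47 TPM in the other 3, Cd160 at 3.73 TPM against 1.39 to 1.55 TPM, and Lag3 at 1.07 TPM against 0.31 to 0.42 TPM. The same tumour had the highest summed T cell markers (124 TPM) and CD8 and cytotoxic markers (174 TPM) of its group. Luc vector 3 stood apart upward for Cd274, at 1.77 TPM against 0.88 to 1.03 TPM, and for Clec4g, at 6.24 TPM against 1.65 to 1.95 TPM. That tumour held 54.76 TPM of Aoah and had the highest endothelial (22.1 TPM) and macrophage (397 TPM) marker sums of the Luc vector group. The part of these features in the levels was not tested.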

How the results depend on the processing

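Counts of members called depended on the settings, and the cause was not tested unless given here. In Luc (1 of 9) the count was 3 with 0.1 TPM added, with only the Luc groups fitted, with each tumour centred on its median and with array weights (2 higher, and Tox lower at -0.45, adjusted p = 0.0396), 2 without Luc Aoah 3 and LucOS Aoah 3, and 0 with a 2 TPM filter, which removed Cd160. Over both models (3 of 9) it was 6 after centring, 1 with the 2 TPM filter, 1 without Luc vector 1 and 3, and 2 to 5 when single tumours were left out. With array weights it was again 3, losing Pdcd1 and adding Tox as lower (-0.35, adjusted p = 0.0224). Array weights, which let single tumours count for more, gave 2 in LucOS (0), 7 for the antigen comparison in vector tumours (0) and 1 for that in Aoah tumours (0). Calls over all genes in Luc, in either direction, also went up with centring and with array weights. They went down with 0.1 TPM added, with only the Luc groups fitted and without Luc Aoah 3 and LucOS Aoah 3. Except for centring over both models, the shares of all genes called are not given here. These counts therefore describe the members only.

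Relative to Cd3e, array weights gave 5 in Luc (3), 7 in LucOS (1), 5 over both (3), 6 for the antigen comparison in vector tumours (0) and 4 in Aoah tumours (0). With the mean of 3 Cd3 chains as denominator the counts were 6 in Luc, 2 in LucOS and 2 for the antigen comparison in vector tumours. In LucOS the count was 2 with 1 TPM added, and 0 with no filter, with only the LucOS groups, with Cd8a as denominator and without Luc Aoah 3 and LucOS Aoah 3. Leaving out single tumours gave 0 to 1 in LucOS, 2 to 3 in Luc and 2 to 3 over both. The shares of all genes called under these settings are not given here, so these counts describe the members only.

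Directions turned mainly for genes near 0. For Entpd1 the level change was 0.0212 in Luc and 0.13 over both after centring, 0.0232 over both with mitochondrial and small noncoding genes taken out, and 0.0776 over both without Luc vector 1 and 3. In LucOS, Entpd1 was -0.23 with array weights and -0.22 without the pair Luc Aoah 3 and LucOS Aoah 3, Tox was -0.26 and -0.19, and Havcr2 was -0.0592 with array weights. Tox over both models was 0.0414 after centring. Relative to Cd3e over both models, Pdcd1 was -0.23 with 1 TPM added, -0.44 with 3 Cd3 chains, -0.0061 without Luc vector 1 and 3, and -0.081 without the Aoah pair. Ctla4 was -0.44, -0.26 and -0.0741 in the first 3 of these, and Cd160 was 0.18 without the Aoah pair. When single tumours were left out, Tox ran from -0.19 to 0.47 in LucOS and from -0.32 to 0.0075 over both models, and Entpd1 from -0.22 to 0.60 in LucOS and from -0.26 to 0.15 over both. The antigen difference of Cd160 among Aoah tumours ran from -0.14 to 0.19. Over both models relative to Cd3e, Pdcd1 ran from -0.15 to 0.29 and Cd160 from -0.27 to 0.28.

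Tumour numbers did not pair the samples: same-numbered tumours had correlated deviations of r = -0.554 to 0.096. With the number as a replicate block, 1 member passed in Luc, 0 in LucOS and 3 over both, as without it, while calls over all genes in Luc went from 2988 to 1168, and the antigen difference of Cd160 among Aoah tumours was 0.0471. Fits of only the groups compared were not run over both models, and centring was not run on ratios, where it cancels the denominator. Depth is unknown, so what it limits could not be given.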
